A study of Mus musculus with 30 samples.

Results

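Zfp703 and Zfp503 are the mouse members of the NET family of zinc finger corepressors. They were followed through the retinoic acid differentiation of KH2 mouse embryonic stem cells, on 30 single-colour Affymetrix arrays. The members were the probe sets annotated with exactly 1 symbol, and that symbol 1 of the pair, which gave 5 probe sets of the 34945 tested and 2 genes of 18193. Zfp703 was read by 3 probe sets (1436026_at, 1439891_at and 1444202_at) and Zfp503 by 2 (1423835_at and 1423836_at). The pair was selected on measured log2 levels of these arrays: Zfp703 was among the earliest genes to rise, and its probe sets disagreed at 24 h. Its changes between 8, 12, 16 and 24 h, those of later times against these and the differences between its arrays at 12 and 24 h are therefore described without a test.

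All samples were total RNA of the KH2 line, embryonic stem cells grown on feeder cells, and 3 arrays were available for each of 10 groups. The arrays at 8 h are called baseline in the labels, which do not say whether retinoic acid was present in them. The other groups, labelled as treated with retinoic acid, were taken at 12, 16, 24, 36, 48, 60 and 72 h. At 12 and 24 h there were 6 arrays each, lettered A to C and D to F, and each set of 3 letters was kept as a group of its own because the labels do not say what the letters stand for. The protocol shared by all samples names 0.3 uM retinoic acid in medium with serum, speaks of treatments of a few hours only, and describes no vehicle arm. Before lysis the trypsinised cells were put on gelatin for 30 min, a step that separates feeders from stem cells. The protocols give it in 2 versions, in that 1 text lyses the cells that adhered and the other those in the medium drawn off. Nothing says that the arrays of a group came from separate cultures, so the p-values below measure the spread between these arrays, which may be technical.

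NET proteins are named after the fly genes no ocelli and elbow and the worm gene tlp-1. They carry a single atypical zinc finger, a buttonhead box shared with the Sp factors and a short motif that recruits Groucho/TLE corepressors, and they are known as repressors rather than as activators of transcription. Zfp703 (also Nlz1 or Zeppo1) is known from the embryonic hindbrain and eye and, in its human form, as an amplified oncogene of luminal breast cancer. Zfp503 (Nlz2, Zeppo2 or Nolz-1) is known from the optic fissure, the developing striatum and motor neurons. Retinoic acid acts through nuclear receptors that bind pairs of AGGTCA-like motifs, and stem cells exposed to it leave pluripotency and switch on HOX genes and neural or endodermal programmes.

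The sequence just before the start of Zfp503 is given because the gene rose in these cells, as described below. It was taken from RefSeq (GRCm38.p6, chr14:21989602-21989851, minus strand) and is the 250 bases before the annotated start.
Zfp503: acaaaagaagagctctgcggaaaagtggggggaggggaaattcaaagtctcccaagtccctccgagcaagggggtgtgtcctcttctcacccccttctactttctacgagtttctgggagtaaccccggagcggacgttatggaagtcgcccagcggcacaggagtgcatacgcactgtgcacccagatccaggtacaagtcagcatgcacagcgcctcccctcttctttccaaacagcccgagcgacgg
The receptor motif AGGTCA was not in it on either strand, and neither were its variants AGTTCA or GGGTCA or the variant GGTTCA, so no letter is capitalised, while 38.6% of 32851 RefSeq promoters of this length held at least 1 of them. It held no GGGCGG (in 32.7% of promoters) and no TATAAA (in 12.4%) either. Its GC content was 57.2% against a median of 52.4% over these promoters, and it held 13 CpG dinucleotides against a median of 6. A window without a match says only that these letters are not in this window. Zfp703 is named without a sequence.

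For comparison, the pairs of motifs spaced by 5 bases in the promoters of Rarb, which encodes a retinoic acid receptor, and Cyp26a1, which encodes the enzyme that clears retinoic acid, are shown with the motifs in capitals. Rarb lies at chr14:16575513-16575529 on the minus strand, 53 bases before its start. Cyp26a1 lies at chr19:37697776-37697792 on the plus strand, 32 bases before its start, and its motifs are read on the opposite strand.
Rarb: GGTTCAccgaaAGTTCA
Cyp26a1: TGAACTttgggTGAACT
Such a pair, on either strand and with any of the 4 motifs, was found in 29 promoters (0.0883%). Both Rarb and Cyp26a1 were among the retinoic acid genes measured here, and their values are given with that list.

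The values were deposited on a log2 scale, array medians lay between 6.34 and 6.39, and none of the 30 within-group pairs of arrays held identical values. A pair of control probe sets for hybridisation spikes (BioDn and BioC) differed by 0.99 to 1.07 in the 12 arrays of 8 h, 16 h and letters A to C. In the other 18 arrays (letters D to F and all later times) the difference was 1.34 to 1.63. Changes were therefore taken within the array set of 8, 12, 16 and 24 h with letters A to C, or within the set of 12 and 24 h with letters D to F and 36 to 72 h. Stem cell markers (8 genes, Pou5f1 and Nanog among them) averaged 12.58 to 12.66 at 8 h, as a log2 level per array. In the other set they averaged 12.48 to 12.55 at 12 h and 10.76 to 10.94 at 60 h. At 72 h their mean was 11.24 to 11.51.

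Zfp703, as read by 1436026_at, rose early and steeply, was highest at 36 h and was lower from 48 h on. At 8 h its log2 levels were 8.70, 8.65 and 8.52 (mean 8.62 ± 0.09 SD, n = 3). At 12 h, letters A to C, they were 9.74, 10.07 and 10.05 (9.95 ± 0.19). All 3 arrays at 12 h lay above all 3 at 8 h, a difference of 1.33 or 2.51-fold. At 16 h the levels were 10.96, 11.03 and 10.94 (10.98 ± 0.05), 2.35 above 8 h or 5.11-fold. At 24 h, letters A to C, they were 11.03, 11.46 and 11.18 (11.22 ± 0.22), 2.60 above 8 h or 6.05-fold. Most of the climb thus lay between 8 and 16 h: 16 h was 1.02 above 12 h without overlap, whereas 24 h was only 0.24 above 16 h and the groups touched at 11.03. These values chose the gene and are given as a description.

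The arrays of letters D to F and later times gave the second stretch. At 12 h they read 10.51, 10.62 and 10.70 (10.61 ± 0.10, n = 3). At 24 h they read 11.86, 11.88 and 11.90 (11.88 ± 0.02), which is 1.27 higher or 2.42-fold, without overlap. At 36 h they read 12.17, 12.14 and 11.99 (12.10 ± 0.09), 0.22 above 24 h, and again all 3 arrays lay above those before. The 36 h arrays held the highest levels of Zfp703 in the series.

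After 36 h the level fell. At 48 h the arrays read 11.53, 11.43 and 11.47 (11.48 ± 0.05, n = 3), all below the lowest at 36 h. The change was -0.62 ± 0.09 (SE), 1.54-fold lower, with a limma adjusted p of 2.62e-05, where 16.3% of all probe sets were called at this step (an adjusted p under 0.05) and 10.2% were called lower. At 60 h the arrays read 11.66, 11.61 and 11.53 (11.60 ± 0.06) and overlapped with 48 h, a difference of 0.12 with a 95% interval of -0.06 to 0.30 (adjusted p = 0.384, 18.4% of probe sets called). At 72 h they read 11.45, 11.44 and 11.46 (11.45 ± 0.01). All 3 lay below those at 60 h, but the difference of -0.15 (95% interval -0.33 to 0.03) was not called (adjusted p = 0.316, 9.06% called). Over the whole later stretch, 72 h was 0.65 lower than 36 h in log2 units, and 1.57-fold lower (adjusted p = 3.84e-06, 28.8% called), and still 0.84 above 12 h of letters D to F. With each of the 6 arrays of 36 and 48 h left out in turn, the fall between these times ranged from -0.67 to -0.59.

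**Figure D1:**
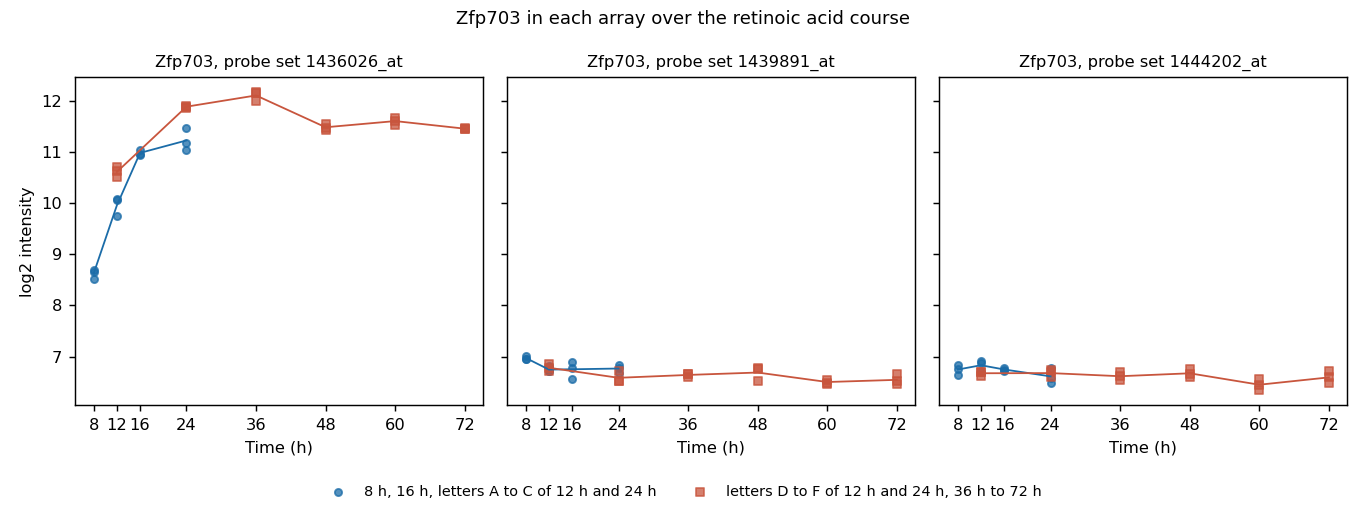
Log2 level of the 3 Zfp703 probe sets on each of the 30 arrays (points; colours separate the 2 array sets) against time in hours, with lines joining the group means within each set. In the set of 8 h, 1436026_at goes from a mean of 8.62 to 11.22 at 24 h. In the other set it goes from 10.61 at 12 h to 12.10 at 36 h and back to 11.45 at 72 h. The other probe sets stay between 6.34 and 7.02.

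The other 2 probe sets of Zfp703 did not show this course. On 1439891_at the arrays at 8 h read 7.02, 6.96 and 6.95, and the 3 arrays at 24 h of letters A to C read 6.67, 6.79 and 6.85, which is 0.21 lower and without overlap. It was 0.23 lower at 12 h and 0.22 lower at 16 h. Where 1436026_at was 6.05-fold higher at 24 h than at 8 h, 1439891_at thus lay on the other side of its level at 8 h. On 1444202_at all 30 arrays lay between 6.34 and 6.92. At 24 h, letters A to C, it was 0.13 below 8 h with overlapping arrays.

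The range of the 10 group means was 3.48 on 1436026_at, 0.47 on 1439891_at and 0.38 on 1444202_at. By mean level over the arrays, 1439891_at was at the 47.7th and 1444202_at at the 47.2nd percentile of all tested probe sets, and 1436026_at at the 92.2nd. From 36 h on, where tests were made, neither of the flat probe sets was called in 48 h against 36 h, 60 h against 48 h, 72 h against 60 h or 72 h against 36 h. The nearest was 1444202_at at 60 h against 48 h, with a change of -0.22 and an adjusted p of 0.0522. It would be called without letter A of 60 h (-0.28), and 1439891_at (-0.19, adjusted p = 0.111) without letter C of 48 h (-0.27). Another quantile normalisation or median centring would call 1444202_at too (adjusted p = 0.0294 and 0.0356). So would leaving out dim probe sets (0.0365) or array weights (0.0258), and array weights would call 1439891_at (0.0101). Over the 10 group means, 1436026_at had a Pearson r of -0.84 with 1439891_at and of -0.60 with 1444202_at, given as a description of values that share arrays. Which stretch of the transcript each probe set reads was not analysed here, so the level of the gene is given below as that of 1436026_at alone.

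In the set of 8 h and letters A to C Zfp503 was not called at 12 h and was called higher than at 8 h at 16 and 24 h. In the other set it went on rising to 60 h. On 1423835_at the arrays at 8 h read 7.32, 7.13 and 7.32 (7.26 ± 0.11 SD, n = 3), and those at 12 h, letters A to C, read 7.51, 7.29 and 7.14 (7.32 ± 0.19). These groups overlapped, and the difference of 0.06 (95% interval -0.29 to 0.41) was not called (adjusted p = 0.881), where 14.1% of probe sets were called. On 1423836_at the change to 12 h was 0.26 ± 0.14 (SE, 95% interval -0.04 to 0.55) and also not called (adjusted p = 0.275). Among these arrays Zfp503 thus gave no call at the time at which Zfp703 was already 2.51-fold above 8 h. The D to F arrays at 12 h read 8.41 to 8.59 on 1423835_at, but their set holds no 8 h arrays to compare. Which gene rose first was not tested, since the values of Zfp703 had chosen that gene.

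At 16 h, 1423835_at read 7.77, 7.66 and 7.86 (7.76 ± 0.10), all above 8 h. The change of 0.51 ± 0.17 (SE) was called (adjusted p = 0.0201, 36.5% of probe sets called), but not without letter B of 8 h (0.44) or letter C of 16 h (0.46), nor after another quantile normalisation (0.44). On 1423836_at the change was 0.66 ± 0.14 (adjusted p = 0.000676). Against 12 h, 16 h was 0.45 higher on 1423835_at (adjusted p = 0.0717) and 0.40 on 1423836_at (adjusted p = 0.0564). The groups did not overlap on either probe set, which is given as a description. Neither change was called, where 16.7% of probe sets were. Both would be called with array weights (adjusted p = 0.0168 and 0.0141) or in a fit to these groups alone (0.0263 and 0.0107), and 1423836_at also without dim probe sets (0.0416) or with a trended, robust moderation (0.0476).

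At 24 h, letters A to C, 1423835_at read 8.15, 8.96 and 8.50 (8.54 ± 0.41), all above every array at 16 h. Zfp503 was then 2.43-fold above 8 h, a change of 1.28 ± 0.17 (SE, adjusted p = 2.21e-06, 31.5% of probe sets called). The step from 16 h was 0.77 (adjusted p = 0.000977, 28.9% called). The second probe set gave 1.30 against 8 h (adjusted p = 1.75e-07) and 0.64 against 16 h (adjusted p = 0.00126). These calls held with each array left out in turn.

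In the set of letters D to F and later times the rise went on in steps of similar size. At 12 h 1423835_at read 8.59, 8.41 and 8.55 (8.52 ± 0.09), and at 24 h 9.09, 9.07 and 9.24 (9.13 ± 0.09), a change of 0.61 (adjusted p = 0.00851, 25.4% called). At 36 h the arrays read 9.91, 9.61 and 9.94 (9.82 ± 0.18), 0.69 above 24 h (adjusted p = 0.0102, 9.22% called). At 48 h they read 10.65, 10.48 and 10.14 (10.43 ± 0.26), 0.61 above 36 h (adjusted p = 0.0144). At each of these steps all later arrays lay above all earlier ones. The call at 36 h was lost without letter D of 24 h (0.66, adjusted p = 0.0515). That at 48 h was lost without letter B of 36 h (0.50) or letter A of 48 h (0.49).

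At 60 h 1423835_at was highest, with 11.25, 11.27 and 11.04 (11.18 ± 0.13), 0.76 above 48 h (adjusted p = 0.00247, and 0.142 with letters pooled). Pooling left this change at 0.76, since it does not touch these arrays, and only the estimate of the spread differed. At 72 h the arrays read 11.11, 10.79 and 10.40 (10.77 ± 0.35) and overlapped with 60 h. The difference of -0.42 (95% interval -0.77 to -0.07) was not called (adjusted p = 0.124), but would be without letter A of 72 h (-0.59, adjusted p = 0.0396). Array weights would also call this difference (-0.48, adjusted p = 0.00675). On 1423836_at it was -0.22 (adjusted p = 0.359), and -0.42 without letter C of 60 h, when it would be called. Over the later stretch, 72 h was 0.95 above 36 h (adjusted p = 0.000115). Against 12 h of letters D to F it was 2.25 ± 0.17 (SE) higher or 4.75-fold (adjusted p = 3.97e-11), where 53.5% of probe sets were called.

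The 2 probe sets of Zfp503 gave 1 course. On 1423836_at the group means were 6.67 at 8 h, 6.93 at 12 h, 7.33 at 16 h and 7.97 at 24 h of letters A to C. They were 7.54 at 12 h and 8.08 at 24 h of letters D to F, then 8.72 at 36 h, 9.33 at 48 h, 10.11 at 60 h and 9.88 at 72 h. The change from 12 h (D to F) to 72 h was 2.34 or 5.06-fold, against 4.75-fold on 1423835_at. Its step from 12 to 24 h in letters D to F was 0.53 (adjusted p = 0.00739). Its later steps were 0.65 at 36 h (adjusted p = 0.00492, and not called without letter D of 24 h, 0.51), 0.61 at 48 h (adjusted p = 0.00444) and 0.78 at 60 h (adjusted p = 0.000472, and 0.0783 in a fit to the groups of this step alone). Over the 10 group means the pair had a Pearson r of 0.99, again a description of values from the same arrays.

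**Figure D2:**
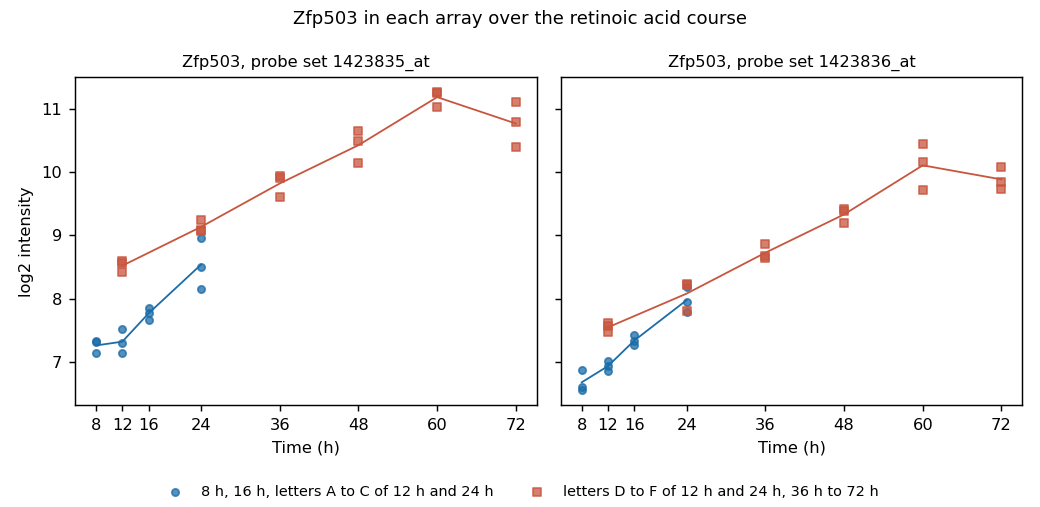
Log2 level of both Zfp503 probe sets on each of the 30 arrays (points; colours separate the 2 array sets) against time in hours, with lines joining the group means within each set. In the set of 8 h, 1423835_at climbs from a mean of 7.26 to 8.54 at 24 h and 1423836_at from 6.67 to 7.97. In the other set they climb from 8.52 and 7.54 at 12 h to 11.18 and 10.11 at 60 h.

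The order of the group means differed between the genes. For Zfp703 on 1436026_at the order from low to high was 8 h, 12 h (A to C), 12 h (D to F), 16 h, 24 h (A to C), 72 h, 48 h, 60 h, 24 h (D to F) and 36 h. The arrays of neighbours overlapped from 16 h through 60 h in this order, and the remaining neighbours were apart. For Zfp503 on 1423835_at the order was 8 h, 12 h (A to C), 16 h, 12 h (D to F), 24 h (A to C), 24 h (D to F), 36 h, 48 h, 72 h and 60 h. Here 8 h overlapped with 12 h (A to C), 12 h (D to F) with 24 h (A to C), 48 h with 72 h and 72 h with 60 h. Over the 10 group means 1436026_at and 1423835_at had a Pearson r of 0.73. These orders and every r over the 10 group means run across both array sets, so the difference between the sets enters them.

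The step from 36 to 48 h was the place where the genes parted. There Zfp703 fell by 0.62 in log2 units and Zfp503 rose by 0.61, each with an adjusted p under 0.05. With the letters pooled neither was called (adjusted p = 0.063 and 0.293), and Zfp503 was not called in a fit to these groups alone either (0.0525). Pooling does not touch the arrays of 36 and 48 h, so both changes stayed the same and only the estimate of the spread differed. Zfp503 then rose again to 60 h while Zfp703 was not called. A difference between the genes at this step was not fitted, since each probe set has a scale of its own.

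**Figure D3:**
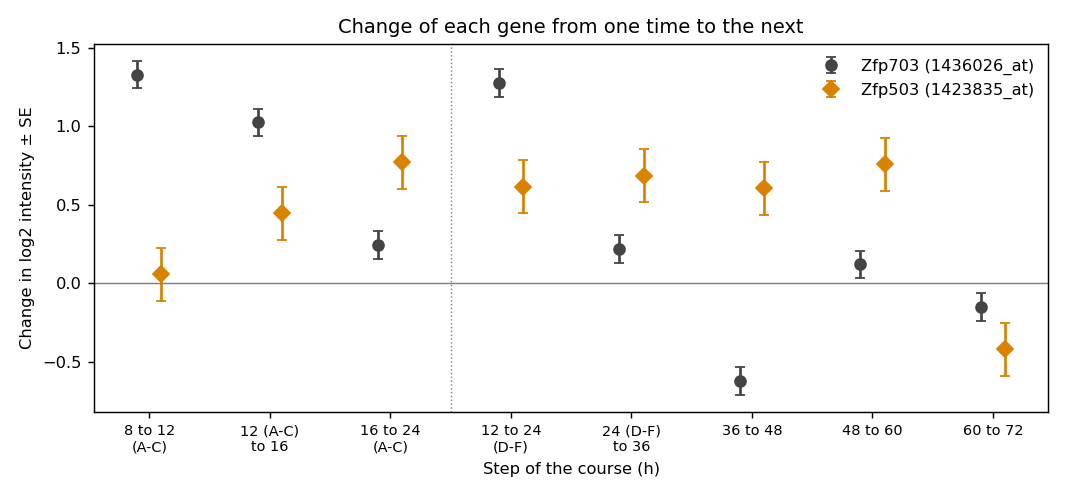
Change in log2 level at each step between neighbouring times, for Zfp703 (1436026_at, circles) and Zfp503 (1423835_at, diamonds), with bars for the standard error of the fit and a dotted line between the 2 array sets. Zfp703 has its large steps up to 16 h and from 12 to 24 h (D to F) and is at -0.62 from 36 to 48 h, while Zfp503 is above 0 at each step up to 60 h.

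Arrays of the same time but different letters did not give the same level. At 12 h Zfp703 on 1436026_at was 0.65 higher on the D to F arrays than on those lettered A to C, and the arrays did not overlap. At 24 h it was 0.66 higher, again without overlap. Of all probe sets 32.8% were called at 12 h and 28.8% at 24 h, so that such differences were common on these arrays. The change from 12 to 24 h was 1.27 in both letter sets. These levels belong to those that chose the gene and are given without a test.

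Zfp503 differed between the letter sets too. On 1423835_at the D to F arrays were 1.20 higher than the A to C arrays at 12 h (adjusted p = 5.27e-06) and 0.60 at 24 h (adjusted p = 0.00887), the latter not called without letter A of 24 h (0.40, adjusted p = 0.0948). On 1423836_at the differences were 0.61 (adjusted p = 0.00163) and 0.10 (adjusted p = 0.653). At 12 h the D to F arrays of 1423835_at, 8.41 to 8.59, even lay above the arrays at 16 h, 7.66 to 7.86. The change from 12 to 24 h was smaller in D to F by 0.60 ± 0.24 on 1423835_at (adjusted p = 0.093) and by 0.51 on 1423836_at (adjusted p = 0.0974), where 15% of probe sets were called. Neither was called, but both would be with array weights (adjusted p = 0.0347 and 0.0375), and the former also without letter A of 24 h (-0.80, adjusted p = 0.0213). The spike difference separated the same letters, and its part in these values cannot be told apart from that of the letters. Pooling the letters would carry the difference into the time course: Zfp703 would then be 1.66 and not 1.33 above 8 h at 12 h, and 0.55 and not 0.22 above 24 h at 36 h.

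Retinoic acid response genes rose over the same hours. The list held 17 genes known to respond to retinoic acid in stem cells, of which 14 were measured by a probe set of their own symbol. At 12 h (A to C) 9 of 14 were called higher than at 8 h and none lower, with a median change of 0.42, where 8.59% of all probe sets were called higher and the median over all was -0.01. At 24 h (A to C) all 14 were called higher, with a median of 1.02, where 17.6% of all were called higher. From 12 to 24 h in letters D to F, 12 of 14 were called higher and none lower (median 0.95, against 12.9% called higher over all).

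Within this list Crabp2, which encodes a protein that carries retinoic acid to its receptors, had means of 9.02 at 8 h, 10.08 at 12 h and 12.19 at 16 h in log2 units. Hoxb1, a hindbrain HOX gene, was 0.87 ± 0.12 (SE) higher at 12 h and 2.57 ± 0.12 at 24 h (A to C). Rarb was 0.47 ± 0.12 and 0.93 ± 0.12 higher at these times, and Cyp26a1 0.60 ± 0.11 and 0.77 ± 0.11. For Zfp703 the values at these times were 1.33 and 2.60, and since its early rise chose it, no rank among these genes is read from them. Zfp503 had 0.06 and 1.28. Nr2f1 (0.26 and 1.45) and Meis1 (-0.16 and 2.08), both transcription factor genes, were likewise not called at 12 h and called higher at 24 h. So were Nr2f2 (-0.17 and 0.63), Tgm2 (0.18 and 0.51) and Nrip1 (0.17 and 0.40), with smaller changes at 24 h than Zfp503.

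At the step from 36 to 48 h 3 of the 14 were called higher and 4 lower, where 6.01% of all probe sets were called higher and 10.2% lower. Hoxb1 fell by 0.99, Crabp2 fell by 0.67, Stra8 fell by 0.55 and Dhrs3 fell by 0.36, as did Zfp703. Tgm2, Nr2f1 and Nr2f2 rose by 0.95, 0.66 and 1.11, as did Zfp503. The other 7 were not called. The median change was -0.05, against -0.01 over all probe sets.

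**Figure D4:**
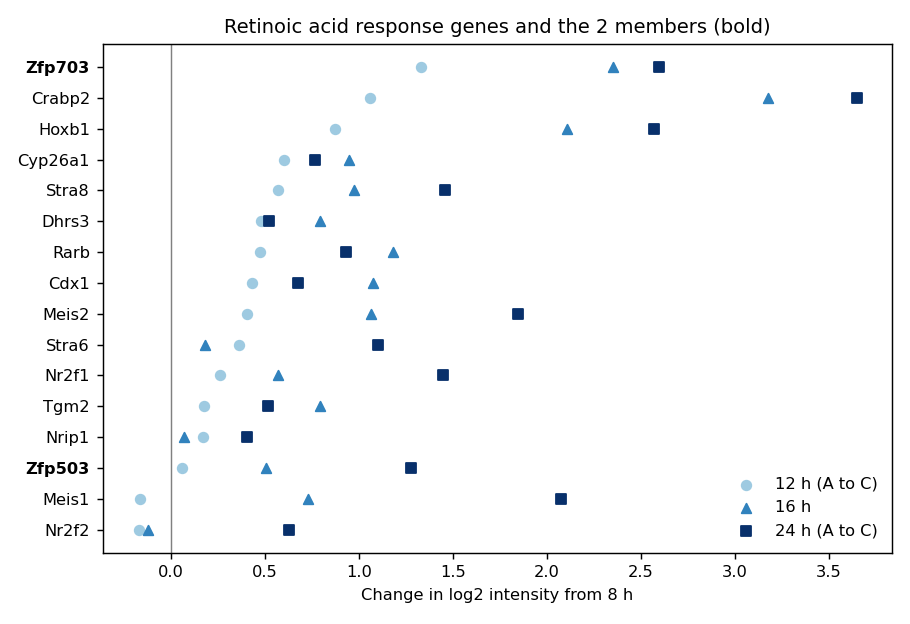
Change in log2 level from 8 h (horizontal axis) of Zfp703 (1436026_at), Zfp503 (1423835_at) and the 14 retinoic acid response genes, 1 gene a line, at 12 h (A to C, circles), 16 h (triangles) and 24 h (A to C, squares). Zfp503 is at 0.06 at 12 h and at 1.28 by 24 h, and Zfp703, which was chosen for its early rise, is at 1.33 and 2.60.

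Genes known as partners of NET proteins moved both ways. The list held 13 symbols (the Groucho/TLE family, histone deacetylases, prohibitin 2 and the adaptor Dcaf7 among them), of which 10 were measured. At 24 h (A to C) Hdac1, a histone deacetylase, was called higher by 0.23, while Tle5, a short TLE protein, and Phb2 were called lower, by -0.37 and -0.24. The other 7 were not called, the median of the list was -0.15, and 31.5% of all probe sets were called. At 12 h (A to C) Tle2 (0.51) and Tle6 (0.39) had been called higher and Tle4 lower (-0.38), where 14.1% of all were called. At 16 h against 8 h 5 of 10 were called, against 36.5% of all probe sets: Tle3 (0.22), Hdac1 (0.22) and Dcaf7 (0.13) higher, Tle4 (-0.95) and Phb2 (-0.19) lower. Tle4, a full-length Groucho-type corepressor, thus had its lowest mean of this array set at 16 h, 11.02, and was 0.77 higher at 24 h. From 12 to 24 h in letters D to F, 6 of 10 were called, 2 higher and 4 lower, against 25.4% of all.

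Over the longer span from 12 h (D to F) to 72 h, 3 of the 10 partners were called higher and 5 lower, with a median of -0.16 against -0.08 over all probe sets, of which 23.3% were called higher and 30.2% lower. Tle4 went from a mean of 11.95 to 10.85, a change of -1.10 ± 0.08 (SE). Tle6 changed by -0.80 and Tle5 by -0.57. Tle3, another full-length member, rose by 0.64 and Dcaf7 by 0.64, and Hdac2 by 0.33. At 48 h against 36 h, where Zfp703 and Zfp503 parted, Hdac1 (-0.16) was the single partner called, against 16.3% of all probe sets.

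Of 5 genes reported elsewhere as regulated by NET proteins, 4 were measured. Cdh1, which encodes E-cadherin, had a mean of 12.58 at 12 h (D to F) and 11.80 at 72 h, a change of -0.78 ± 0.14 (SE). Tgfbr2, a TGF-beta receptor gene, rose by 1.66 ± 0.19 and Gata3, a transcription factor gene, by 3.82 ± 0.13 over that span. Rarb, which is on this list too, rose by 2.87. Over this span 23.3% of all probe sets were called higher and 30.2% lower. At 24 h against 8 h (A to C) Tgfbr2 (0.61), Gata3 (0.51) and Rarb (0.93) were called higher and Cdh1 (-0.08) was not called, where 17.6% of all probe sets were called higher. At 48 h against 36 h Tgfbr2 (1.19) and Gata3 (1.43) were called higher, where 6.01% of all were, and the median of the 4 was 0.72.

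The Sp factors, which share the buttonhead box, were measured for 7 of 9 genes. At 24 h against 8 h (A to C) Sp8, a limb and forebrain gene, was called higher by 1.73 ± 0.15 (SE) and Sp7, a bone gene, lower by -0.26, and the other 5 were not called, where 31.5% of all probe sets were called. From 12 h (D to F) to 72 h, Sp1 (-0.29), Sp5 (-0.55) and Sp7 (-0.27) were called lower and none higher, a share of the 7 near the 30.2% of all probe sets called lower. The median of the 7 was -0.04 in the former and -0.27 in the latter comparison, against -0.04 and -0.08 over all probe sets. Sp8 had a mean of 5.10 at 8 h. In the other array set its means were 7.01 at 12 h (D to F), 8.19 at 36 h and 6.68 at 72 h. Like Zfp703, it was highest at 36 h.

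Genes with the course most like each member were taken from 4110 candidates whose group means ranged over at least 1 log2 unit, by Pearson r over the 10 group means, with the probe set of highest mean per gene. For Zfp703 (1436026_at) they were Slc43a3 (0.99), Arhgap18 (0.98), Hoxb6 (0.98), Scd2 (0.98) and Rgs10 (0.98). Slc43a3 went from 6.18 at 8 h to 8.01 at 36 h and 7.73 at 72 h, and Hoxb6 from 6.35 to 11.49 and 10.15. Over the 30 arrays, 4 of the 5 were again among the 5 most alike. For Zfp503 (1423835_at) they were Gli3, Sh3bgrl, Ubqln2, F2r and Mex3b, with an r of 0.99 to 1.00 after rounding. Gli3, a transcription factor gene of the hedgehog pathway, went from 8.90 at 8 h to 10.66 at 60 h, and Mex3b, an RNA-binding protein gene, from 4.45 to 10.39. The mean of Mex3b at 8 h lay below the lower quartile of the arrays, which was 4.73 to 4.85. Over the 30 arrays 2 of these 5, Gli3 and Mex3b, were again in the first 5. These r values and the spans from 8 h run across both array sets, so the difference between the sets enters them.

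The chromosomal neighbours of each gene, by their order in RefSeq, were also read. For Zfp703 these are Hook3, Rnf170 and Thap1 to 1 side and Erlin2, Plpbp and Adgra2 to the other. At 24 h against 8 h (A to C) Hook3 (0.26), Rnf170 (0.50), Erlin2 (0.16) and Adgra2 (0.63) were called higher, Thap1 (-0.56) lower and Plpbp not, where 31.5% of all probe sets were called. Adgra2, an adhesion receptor gene, was 2.41 higher at 72 h than at 12 h (D to F), and at 48 h, where Zfp703 fell, it rose by 0.73. For Zfp503 the measured neighbours were Vdac2, Comtd1, Lrmda, Kcnma1 and Dlg5, with changes of -0.07, -0.19, 0.01, -0.16 and 0.06 at 24 h against 8 h. None of these 5 was called there. From 12 h (D to F) to 72 h Dlg5 rose by 0.90, Comtd1 (-0.55) and Vdac2 (-0.16) fell, and the other 2 were not called, against 53.5% of all probe sets called.

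Markers of other cells moved over the same times. The RNA came from the cells lysed after the gelatin step, and the protocols do not settle which cells these were. In such bulk RNA, fewer cells of a type and less RNA per cell cannot be told apart. Fibroblast markers, which feeder cells and differentiating mesenchyme share (11 of 12 measured), averaged 7.37 to 7.72 per array at 8 h. In the other array set they averaged 7.29 to 8.23 at 12 h (D to F) and 8.41 to 8.93 at 36 h. At 48 h they averaged 9.46 to 10.72, at 60 h 9.03 to 9.81 and at 72 h 9.22 to 10.30. At 48 h against 36 h 10 of 11 were called higher, against 6.01% of all probe sets, with a median of 1.74, at the step at which Zfp703 fell and Zfp503 rose. Their part in these changes was not tested.

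Neural progenitor markers (5 of 6 measured, Pax6 and Nes among them) averaged 6.19 to 6.42 at 8 h. At 12 h (A to C) they averaged 6.20 to 6.41. In the other array set they averaged 6.98 to 7.05 at 12 h (D to F) and 8.83 to 9.31 at 60 h. Endoderm markers (6 of 6, Gata4 and Gata6 among them) averaged 6.62 to 6.72 at 8 h and 6.61 to 6.70 at 12 h (A to C). In the other array set they averaged 7.22 to 7.32 at 12 h (D to F) and 8.53 to 8.83 at 72 h. From 12 h (D to F) to 72 h, 4 of 5 neural and 5 of 6 endoderm markers were called higher and none lower, where 23.3% of all probe sets were called higher and Zfp503 was 4.75-fold higher. At 24 h against 8 h (A to C), 4 of 5 neural and 3 of 6 endoderm markers were called higher, where 17.6% of all were. From 16 to 24 h (A to C) it was 4 and 2, against 15.5%. From 12 to 24 h (D to F) it was 4 and 3, against 12.9%. From 24 h (D to F) to 36 h it was 2 and 2, against 5.96%, and from 48 to 60 h 3 and 3, against 7.98%. None was called lower in these comparisons, in each of which Zfp503 was called higher. At 16 h against 8 h, where Zfp503 was called too, 1 of 5 neural markers was called higher. Of the 6 endoderm markers 1 was called higher and 1 lower, where 19.4% of all probe sets were called higher and 17.1% lower. At 48 h against 36 h 1 neural marker was called higher and 1 lower, and 1 of 6 endoderm markers higher. At that step 6.01% of all probe sets were called higher and 10.2% lower. The part of these markers in the change of Zfp503 was not tested. Zic1, at 8 h, 12 h (A to C) and 16 h, and Neurog2, at 12 h (D to F) and 24 h (A to C), lay below the lower quartile of the arrays, which was 4.73 to 4.85. So did Gata3, described above, at 12 h (A to C) and 16 h, and its mean at 8 h was 4.90.

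**Figure D5:**
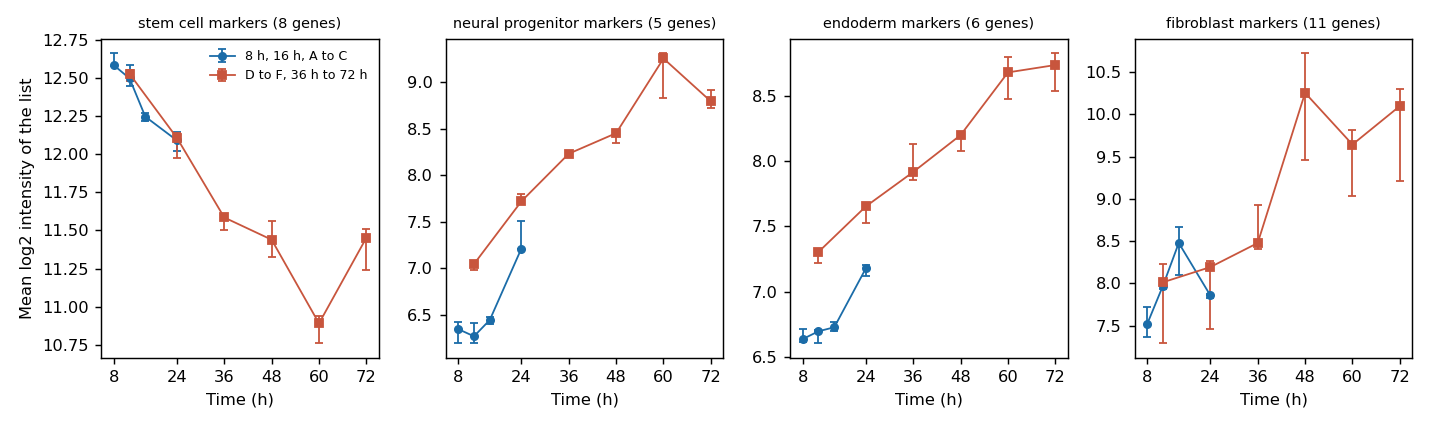
Mean log2 level of stem cell, neural progenitor, endoderm and fibroblast markers against time in hours, with the middle array of each group as the point and bars to its lowest and highest array. Stem cell markers go down between 12 h of letters D to F (12.48 to 12.55) and 60 h (10.76 to 10.94). Fibroblast markers step up between 36 h (8.41 to 8.93) and 48 h (9.46 to 10.72).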

How the data were processed

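Total RNA of 30 samples was labelled with biotin from 200 ng and hybridised to Affymetrix arrays, per the labels' protocols. The authors deposited 1 table of log2 levels, with 45101 probe sets. The submitters' processing notes name limma 3.8.3, while the background correction and normalisation are not given in the sources used here. Probe sets were named through the platform annotation. Control probe sets (64), those with several symbols (932) and those with none (9160) were left out, so 34945 remained. Members and gene lists were chosen with earlier results of these data known.

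Log2 values were fitted with limma 3.58.1 (R 4.3.3), with 10 groups of 3 arrays, empirical Bayes moderation and Benjamini-Hochberg adjustment over all probe sets of a comparison. A call is an adjusted p under 0.05. Genes of the lists are read by their probe set of highest mean. The named genes were the members, the listed genes and the 5 genes most like each member. Tested on simulated data, the 24 h (A to C) against 8 h comparison gave a call for 99% of probe sets shifted by 1 log2 unit. With a shift of 0.5 it was 74%. For 72 h against 36 h the shares were 98% and 66%. In each simulation only 100 probe sets shifted by 1, 50 by 0.5 and 50 by 2 differed between the groups. In the data 31.5% and 28.8% of probe sets were called in these comparisons, so the shares may not carry over. An exact permutation test of 3 against 3 arrays cannot go below 0.1. Groups without overlap are therefore given as a description, and the share of all probe sets without overlap was not counted. No number of reads applies, and 3 arrays a group limit the precision.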

Additional observations from a re-analysis of the deposited data

How the results depend on the processing

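The 63 values of member probe sets were recomputed under 1093 alternatives. With 1 array left out, 367 kept their direction and side of the threshold, 7 lost and 6 gained a call, and 16 changed sign, all of them uncalled or untested. Under other settings 660 were alike, 10 lost and 15 gained a call, 8 moved and 4 changed sign.

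The rise of Zfp503 (1423835_at) from 24 h (D to F) to 36 h ranged from 0.63 to 0.79 with 1 array left out, and the replicate block gave 0.75 with an adjusted p of 0.0507. This block takes letters A and D as its references. Between groups that share no letter it compares letter A with letter D, so its value there depends on that choice. The rise of Zfp503 from 36 to 48 h ranged from 0.49 to 0.75. Its adjusted p was 0.293 with letters pooled (0.61) and 0.0525 with the groups of the comparison alone (0.61). The fall of Zfp703 between these times (-0.62) had an adjusted p of 0.063 with letters pooled. The change of sign with 1 array left out concerned Zfp503 (1423835_at) at 12 h against 8 h (-0.0387 to 0.146). For Zfp703 it concerned the letter difference in its change from 12 to 24 h (-0.0894 to 0.123).

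For the flat probe sets such changes of sign were seen on 1444202_at at 16 h against 8 h (-0.0503 to 0.0464), at 72 h against 36 h (-0.0805 to 0.0356) and between letters at 24 h (-0.00443 to 0.146). On 1439891_at they were seen at 48 h against 36 h (-0.00039 to 0.13), at 72 h against 60 h (-0.0117 to 0.0825) and between letters at 12 h (-0.00459 to 0.0698). With letters pooled, 1423835_at was -0.15 at 16 h against 12 h. With the replicate block, 1423836_at was -0.0625 between letters at 24 h, a value that depends on the reference letters of the block. Median centring gave -0.0129 for the Zfp703 letter difference, and another quantile normalisation gave -0.0222 for 1444202_at at 16 h against 8 h. The cause of the other changes of sign was not tested.

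Letters that groups share did not pair the arrays: 8 of 30 same-letter pairs had deviations correlated above 0.1, over a range of -0.27 to 0.52. The replicate block also ended the calls between letters of 1423835_at at 24 h (0.53) and of 1423836_at at 12 h (0.45), and changed no other call of the members. Both compare groups that share no letter, so these values too depend on the reference letters of the block. Counts of called probe sets also moved, and they are given here over the settings other than leaving out an array. At 72 h against 60 h they ran from 23 to 10270 around 3165, at 60 h against 48 h from 742 to 12753 around 6437, and at 12 h (A to C) against 8 h from 1077 to 7926 around 4932. At 48 h against 36 h they ran from 2104 to 6007 around 5680, and at 36 h against 24 h (D to F) from 1586 to 3937 around 3222. With 1 array left out, the last 2 ran from 3760 to 6146 and from 1473 to 3738. With 1 probe set per gene fewer were tested, and the count went from 18680 to 11030 at 72 h against 12 h (D to F), from 12766 to 7911 at 16 h against 8 h, from 11022 to 7154 at 24 h (A to C) against 8 h, from 10098 to 6250 at 24 h (A to C) against 16 h and from 8887 to 5605 at 24 h against 12 h (D to F). It went from 11472 to 7087 between letters at 12 h, from 10054 to 6141 between letters at 24 h, from 5239 to 3483 for the letter difference in the change between these times, and from 10049 to 6491 at 72 h against 36 h (6382 with letters pooled).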
